A study of Mus musculus with 8 samples.

Results

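Matricellular proteins and fibronectin are represented here by 10 mouse genes, which were picked by symbol (Thbs1, Thbs2, Thbs3, Ccn1, Ccn2, Ccn4, Tnc, Spp1, Postn and Fn1) out of the 22322 genes in the deposited table. All 10 were in the table and all 10 passed the filter on low counts. The samples were 8 RNA sequencing libraries labelled as primary renal fibroblasts from mouse kidney. The Ad-Cre group (n = 4) was infected with an adenovirus carrying Cre recombinase and is labelled as a Suv39h1 knockdown. The Ad-GFP group (n = 4) was infected with an adenovirus carrying GFP and is labelled wild type. Both groups were given TGF-β at 5 ng/ml for 48 hours, so there is no unstimulated baseline, and the age and strain of the mice and the Suv39h1 allele that Cre acts on are not stated in the labels. Cre replaces GFP in the virus of the Ad-Cre group, so effects of the Cre protein and of Suv39h1 loss cannot be told apart in this design. The labels do not state whether each replicate was its own culture or animal; p-values therefore reflect only how these libraries vary, and that variation could be technical.

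Matricellular proteins are secreted into the extracellular matrix, where they bind cell surface receptors, growth factors and structural fibres and change how cells adhere and signal, without being main structural components themselves. Fibronectin is a structural glycoprotein that cells assemble into fibrils through integrins, and these fibrils serve as a scaffold on which other matrix proteins are laid down. TGF-β induces many of these genes in fibroblasts, and fibronectin, tenascin-C and periostin are widely used as signs of fibroblast activation in kidney fibrosis. Suv39h1 is a methyltransferase that places trimethylation on lysine 9 of histone H3, a mark of silent chromatin.

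Counts of Suv39h1 itself were reduced but still present. They are totals per gene, so whether the remaining RNA was intact cannot be told. It measured 25.29, 22.75, 21.63 and 22.56 CPM (counts scaled to library size) across Ad-Cre replicates 1 to 4, against 28.96, 27.82, 29.32 and 29.58 CPM across Ad-GFP replicates 1 to 4. The groups did not overlap, and Ad-Cre stood at 79.6% of Ad-GFP (95% interval 73.5% to 86.2%, adjusted p = 3.293e-05, edgeR quasi-likelihood F-test). Libraries held 18006938 to 23940043 counts in Ad-Cre and 15879244 to 17930632 counts in Ad-GFP, so every Ad-Cre library was the deeper. The label of fibroblast was checked against marker genes. The contractile marker Acta2 was at 422.1 ± 18.9 CPM in Ad-Cre and 796.3 ± 12.8 CPM in Ad-GFP (SD, n = 4 each), and Col1a1 was at 131.4 ± 10.0 CPM in Ad-Cre and 206.6 ± 11.1 CPM in Ad-GFP. In contrast, the fibroblast marker Dcn was at 4.80 ± 2.23 CPM in Ad-Cre and 4.19 ± 0.56 CPM in Ad-GFP, and Lum and Dpt were under 1 CPM in every library. Pdgfra was at 4.24 ± 0.50 CPM in Ad-Cre and 5.14 ± 0.46 CPM in Ad-GFP, and Thy1 at 1.5 ± 0.4 CPM in Ad-Cre and 7.2 ± 0.4 CPM in Ad-GFP. The epithelial keratin Krt8 was at 1168 ± 17.9 CPM in Ad-Cre and 1504 ± 36.8 CPM in Ad-GFP. Cdh1, another epithelial marker, was at 677.0 ± 7.0 CPM in Ad-Cre and 700.2 ± 17.1 CPM in Ad-GFP. Epithelial RNA was thus abundant in these libraries, and the share of each cell type was not tested. Pdgfra, Thy1 and Cdh1 are named after their values were seen.

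The 10 genes covered a wide range of levels. Compared per gene length, as the FPKM (fragments scaled by gene length and library size) that the authors deposited, Spp1, which encodes the secreted phosphoprotein osteopontin, was the most abundant of them, at 7172 ± 289 FPKM in Ad-Cre and 5326 ± 114 FPKM in Ad-GFP (SD, n = 4 each). It held the level rank 3 among all genes of the table in Ad-Cre and rank 9 in Ad-GFP. Fn1 (fibronectin) followed at 1545 ± 11.5 FPKM in Ad-Cre and 1573 ± 37.4 FPKM in Ad-GFP, and Thbs1 (thrombospondin-1) came next at 1164 ± 32.7 FPKM in Ad-Cre and 890.6 ± 26.1 FPKM in Ad-GFP. Ccn2, also known as connective tissue growth factor, stood at 404.0 ± 3.15 FPKM in Ad-Cre and 447.7 ± 6.77 FPKM in Ad-GFP. Below it, the order of a pair of genes differed between the groups. In Ad-Cre, Ccn1 (214.4 to 224.1 FPKM) lay above Tnc (179.6 to 188.5 FPKM) in all libraries. In Ad-GFP, Tnc (217.8 to 230.7 FPKM) had the higher mean but overlapped with Ccn1 (206.3 to 220.2 FPKM). Ccn4 was lower, at 76.2 ± 2.6 FPKM in Ad-Cre and 54.6 ± 1.0 FPKM in Ad-GFP. Postn was at 11.7 ± 0.5 FPKM in Ad-Cre and 13.3 ± 1.0 FPKM in Ad-GFP. Thbs3 and Thbs2 were the lowest, and their FPKM ranges overlapped with each other in both groups.

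**Figure D1:**
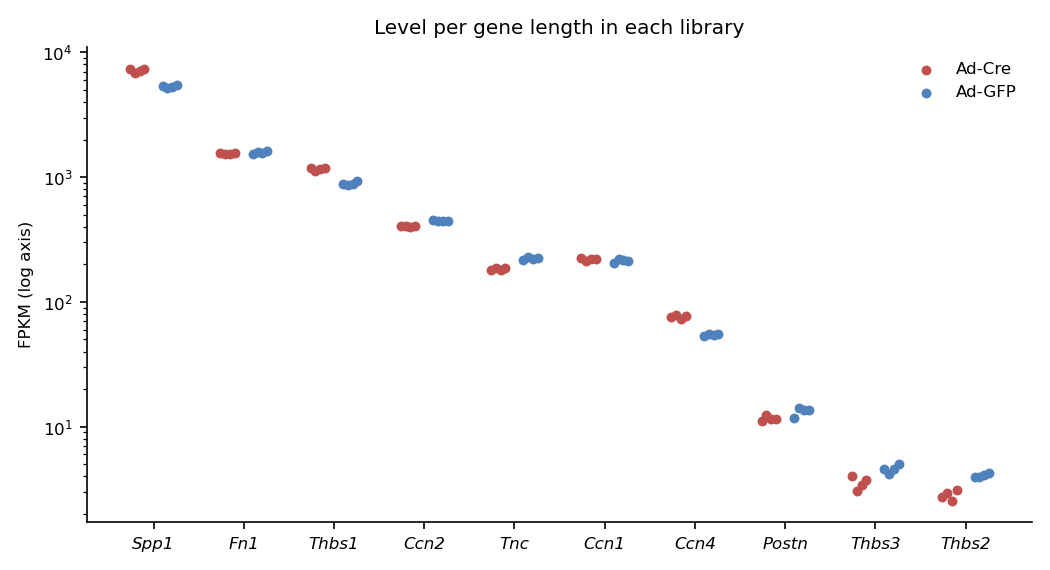
Level of each of the 10 genes in each library, in FPKM on a log axis, with Ad-Cre libraries in red and Ad-GFP libraries in blue (n = 4 each). Spp1 lies between 6781 and 7403 FPKM in Ad-Cre and between 5179 and 5437 FPKM in Ad-GFP, while Thbs2 does not exceed 3.14 FPKM in Ad-Cre or 4.25 FPKM in Ad-GFP.

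Between the groups the 10 genes did not move together: 4 rose in Ad-Cre (Ccn4, Spp1, Thbs1 and Ccn1), 5 fell (Thbs2, Thbs3, Tnc, Postn and Ccn2) and Fn1 was not called. The rise of Ccn1 was lost in 10 of 19 alternative settings, which left 3 rises. A gene is said to rise or fall where its adjusted p was under 0.05 in edgeR's quasi-likelihood test over all 13337 tested genes. Among all tested genes 40.3% were called, 19.8% as higher and 20.5% as lower. Calls were more frequent among abundant genes: 44.7% of the genes averaging 10 CPM or more were called, a level that all 10 reached, as were 84.4% of the 64 genes averaging 1000 CPM or more, a level that 5 of the 10 reached and at which 4 of these were called. For 8 of the 10 genes the groups of libraries did not overlap, as for 35.4% of all tested genes. The median log2 fold change of the 10 genes was -0.07, beside 0.00 over all tested genes. Counts of the 10 genes made up 3.13% to 3.27% of a library in Ad-Cre and 2.81% to 2.92% in Ad-GFP. These are bulk samples, in which fewer cells of a type and less RNA per cell cannot be told apart.

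**Figure D2:**
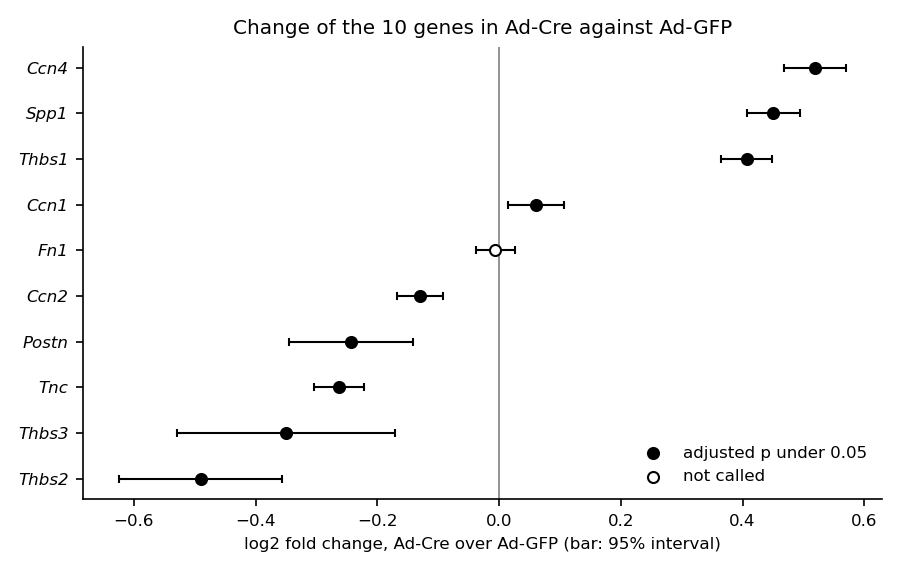
Log2 fold change of each gene, Ad-Cre over Ad-GFP, from edgeR's fit (points) with its 95% interval (bars); filled points passed an adjusted p of 0.05. Ccn4, Spp1 and Thbs1 lie between 0.41 and 0.52, Ccn1 at 0.06 and Fn1 at -0.01, and the other 5 genes lie between -0.49 and -0.13.

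Sequence upstream of the start site is shown for the genes with the largest rise, the largest fall and the smallest change among the 6 of the 10 genes that the RefSeq promoter table (GRCm38.p6) held. Each run covers 250 bases up to the base before the RefSeq start, 5′ to 3′ on the gene's strand, and capitals mark matches on either strand to the motifs searched. Spp1 is read from chr5:104434861-104435110 on the plus strand, Thbs2 from chr17:14694263-14694512 on the minus strand and Ccn1 from chr3:145649986-145650235 on the minus strand.
Spp1: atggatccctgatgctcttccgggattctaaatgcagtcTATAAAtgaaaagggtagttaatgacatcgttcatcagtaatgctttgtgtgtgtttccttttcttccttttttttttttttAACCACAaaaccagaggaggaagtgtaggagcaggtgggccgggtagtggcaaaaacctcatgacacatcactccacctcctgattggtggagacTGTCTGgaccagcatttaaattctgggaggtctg
Thbs2: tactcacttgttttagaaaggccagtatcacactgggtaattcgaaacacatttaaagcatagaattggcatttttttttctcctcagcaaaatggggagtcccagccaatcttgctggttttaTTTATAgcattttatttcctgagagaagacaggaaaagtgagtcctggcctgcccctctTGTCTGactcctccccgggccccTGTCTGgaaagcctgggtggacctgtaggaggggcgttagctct
Ccn1: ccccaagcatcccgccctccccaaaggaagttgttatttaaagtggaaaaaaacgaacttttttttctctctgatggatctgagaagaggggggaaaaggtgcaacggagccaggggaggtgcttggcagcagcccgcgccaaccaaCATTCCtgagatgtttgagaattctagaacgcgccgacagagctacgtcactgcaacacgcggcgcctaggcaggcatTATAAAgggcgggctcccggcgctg
The motifs were the TEAD core CATTCC, the AP-1 site TGANTCA, a SMAD box CAGACA, a RUNX site AACCACA and the TATA box TATAAA, and no marked match overlapped another. Over all 32851 windows of this length in the table, 12.6% held the TEAD core, 6.75% the AP-1 site, 17.1% the SMAD box, 4.4% the RUNX site and 12.4% the TATA letters. In the Ccn1 window the TEAD core began 103 bases and TATA letters 25 bases upstream of the start. In the Spp1 window the RUNX letters began 129 bases upstream, SMAD letters 34 bases upstream and TATA letters 211 bases upstream. The Thbs2 window held SMAD letters that began 67 and 44 bases upstream and TATA letters that began 126 bases upstream. Of the remaining windows, Tnc and Postn matched the TATA letters alone and Thbs3 matched none of these motifs. Letters alone do not show a site in use, and these matches describe the windows only.

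Fibronectin showed almost no difference in its total level. Fn1 (ENSMUSG00000026193), on the minus strand of chromosome 1 at 71585520 to 71653200 (GRCm38), measured 12316, 12090, 12193 and 12287 CPM across Ad-Cre replicates 1 to 4, against 11912, 12320, 12254 and 12604 CPM across Ad-GFP replicates 1 to 4. The ranges overlapped, with both the lowest and the highest library in Ad-GFP. Ad-Cre was at 99.6% of Ad-GFP, with a 95% interval of 97.5% to 101.8%, a range that lies apart from the changes of Ccn4, Spp1 and Thbs1 (adjusted p = 0.783). Its sign depended on the setting, with log2 fold changes from -0.03 to 0.01 over the alternatives tried. Fn1 has 17 annotated transcripts in GENCODE M21, among them splice forms with and without the extra domains that mark cellular fibronectin, and the table holds a total per gene, so forms were not distinguished. Exons of Fn1, Ccn2, Tnc, Thbs1 and Suv39h1 also share 292, 665, 176, 208 and 767 bases with genes on the other strand (Apol7d, Gm15270, 8030451A03Rik, Gm29233 and Gm14820), and those of Spp1 share 309 bases with Gm42793 on its own strand; the partners are not analysed here.

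The thrombospondins diverged. Thrombospondin-1 is a trimeric glycoprotein that binds CD47 and CD36 and can activate latent TGF-β, whereas thrombospondin-2 shares its domain structure but lacks the sequence used for that activation. Thbs1 (ENSMUSG00000040152; plus strand of chromosome 2, 118111876 to 118127133) measured 6983, 6568, 6906 and 6974 CPM across Ad-Cre replicates 1 to 4, against 5152, 5009, 5154 and 5379 CPM across Ad-GFP replicates 1 to 4. Every Ad-Cre library was above every Ad-GFP library. The log2 fold change was 0.41 ± 0.02 (SE, n = 4 per group; adjusted p = 1.051e-14, edgeR).

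Thbs2 (ENSMUSG00000023885; minus strand of chromosome 17, 14665500 to 14694235) went the other way. It measured 16.28, 17.54, 15.19 and 18.67 CPM across Ad-Cre replicates 1 to 4, against 23.22, 23.23, 24.06 and 24.89 CPM across Ad-GFP replicates 1 to 4. The Ad-Cre libraries were all the lower, and Ad-Cre was at 71.2% of Ad-GFP (log2 fold change -0.49 ± 0.06, SE; adjusted p = 1.002e-06), the largest fall of the 10 genes. Thbs3 (ENSMUSG00000028047; plus strand of chromosome 3, 89215180 to 89226837), a pentameric thrombospondin, measured 13.04, 9.76, 11.05 and 12.01 CPM across Ad-Cre replicates 1 to 4, against 14.62, 13.16, 14.42 and 16.01 CPM across Ad-GFP replicates 1 to 4. Its groups were close but did not overlap, and it was at 78.5% of Ad-GFP (95% interval 69.3% to 88.8%; adjusted p = 0.002143). The exons of Thbs3 share 318 bases with Mtx1 on the other strand, and whether counting used strand is not stated in these sources. Mtx1 itself was at 20.1 ± 2.1 CPM in Ad-Cre and 21.1 ± 1.4 CPM in Ad-GFP (SD, n = 4 each; adjusted p = 0.515).

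**Figure D3:**
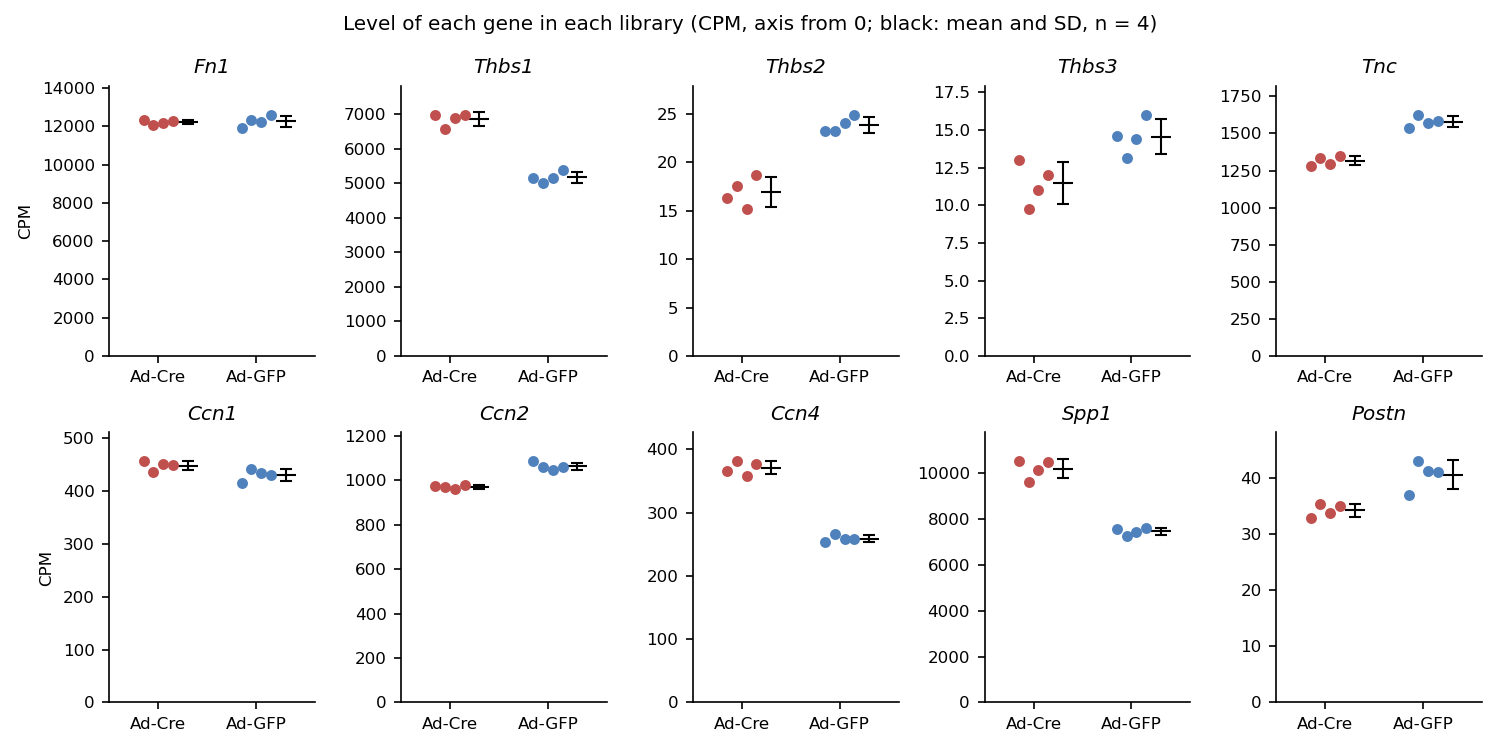
CPM of each gene in each library on axes that start at 0, with Ad-Cre libraries in red and Ad-GFP libraries in blue, and the mean with its SD in black (n = 4 each). Thbs1 lies between 6568 and 6983 CPM in Ad-Cre and between 5009 and 5379 CPM in Ad-GFP, while the ranges of Fn1 and Ccn1 overlap between the groups.

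The CCN proteins also split. These cysteine-rich secreted proteins bind integrins and heparan sulfate; CCN1 and CCN2 are classical targets of the YAP and TEAD transcription factors, and CCN4 was first described as a target of Wnt signalling. Ccn4 (ENSMUSG00000005124; plus strand of chromosome 15, 66891320 to 66923201) measured 366.1, 381.0, 358.5 and 377.7 CPM across Ad-Cre replicates 1 to 4, against 253.7, 266.3, 257.6 and 257.7 CPM across Ad-GFP replicates 1 to 4. This was the largest rise of the 10 genes, to 143.3% of Ad-GFP (95% interval 138.4% to 148.4%; adjusted p = 5.699e-15), with a wide gap between the groups.

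Ccn2 (ENSMUSG00000019997; plus strand of chromosome 10, 24595442 to 24598683) measured 972.1, 968.8, 961.4 and 980.5 CPM across Ad-Cre replicates 1 to 4, against 1085, 1058, 1048 and 1059 CPM across Ad-GFP replicates 1 to 4. The fall was small, a log2 fold change of -0.13 ± 0.02 (SE), but the groups did not overlap and the replicates were tight (adjusted p = 2.425e-06). Ccn1 (ENSMUSG00000028195; minus strand of chromosome 3, 145646976 to 145649981) measured 456.0, 435.8, 451.6 and 449.3 CPM across Ad-Cre replicates 1 to 4, against 414.4, 440.9, 433.5 and 429.8 CPM across Ad-GFP replicates 1 to 4. Its groups overlapped, since Ad-Cre replicate 2 lay below Ad-GFP replicate 2. Ccn1 passed the test narrowly, at 104.3% of Ad-GFP (95% interval 101.0% to 107.7%; adjusted p = 0.03571), and reached an adjusted p of up to 0.253 in the settings that did not call it. Leaving out Ad-GFP replicate 1 (adjusted p = 0.163), 3 (0.0554) or 4 (0.0588), or Ad-Cre replicate 1 (0.0963), 3 (0.0816) or 4 (0.0741) each ended the call.

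Ratios of counts within a library, which do not depend on how libraries are scaled, were compared for the 6 pairs inside these families. A count ratio between genes also reflects gene length, so only its change between groups is read. Thbs1 had 406.4 counts per count of Thbs2 in Ad-Cre (geometric mean) and 216.9 in Ad-GFP, a difference of 0.91 on the log2 scale with no overlap. The Thbs1 to Thbs3 log2 ratio was 0.76 higher in Ad-Cre, at 9.23 ± 0.14 in Ad-Cre and 8.48 ± 0.07 in Ad-GFP (SD, n = 4 each). For Thbs2 to Thbs3 the log2 ratio was 0.57 ± 0.23 in Ad-Cre and 0.72 ± 0.08 in Ad-GFP, and these overlapped (exact permutation p = 0.314 after adjustment over the 6 ratios). In the CCN family, Ccn2 had 2.62 counts per count of Ccn4 in Ad-Cre and 4.11 in Ad-GFP. The log2 ratio of Ccn1 to Ccn4 was 0.27 ± 0.06 in Ad-Cre and 0.73 ± 0.02 in Ad-GFP. The log2 ratio of Ccn1 to Ccn2 was -1.12 ± 0.03 in Ad-Cre and -1.31 ± 0.06 in Ad-GFP, so these genes moved apart although each changed little alone. Of the 6 ratios, 5 separated the groups completely, each with a two-sided exact permutation p = 0.0286, the smallest that 4 against 4 samples allow, and 0.0343 after adjustment. The ratios share genes and restate the changes of single genes given above, so they are not separate results. How many other pairs of genes would separate in the same way was not tested. As shares of the summed FPKM of Ccn1, Ccn2 and Ccn4, Ccn4 made up 10.5% to 11.3% in Ad-Cre and 7.41% to 7.72% in Ad-GFP, and Ccn2 made up 57.5% to 57.9% in Ad-Cre and 61.7% to 63.8% in Ad-GFP. Thbs1 made up nearly all of the summed thrombospondin FPKM, with means of 99.45% in Ad-Cre and 99.04% in Ad-GFP.

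**Figure D4:**
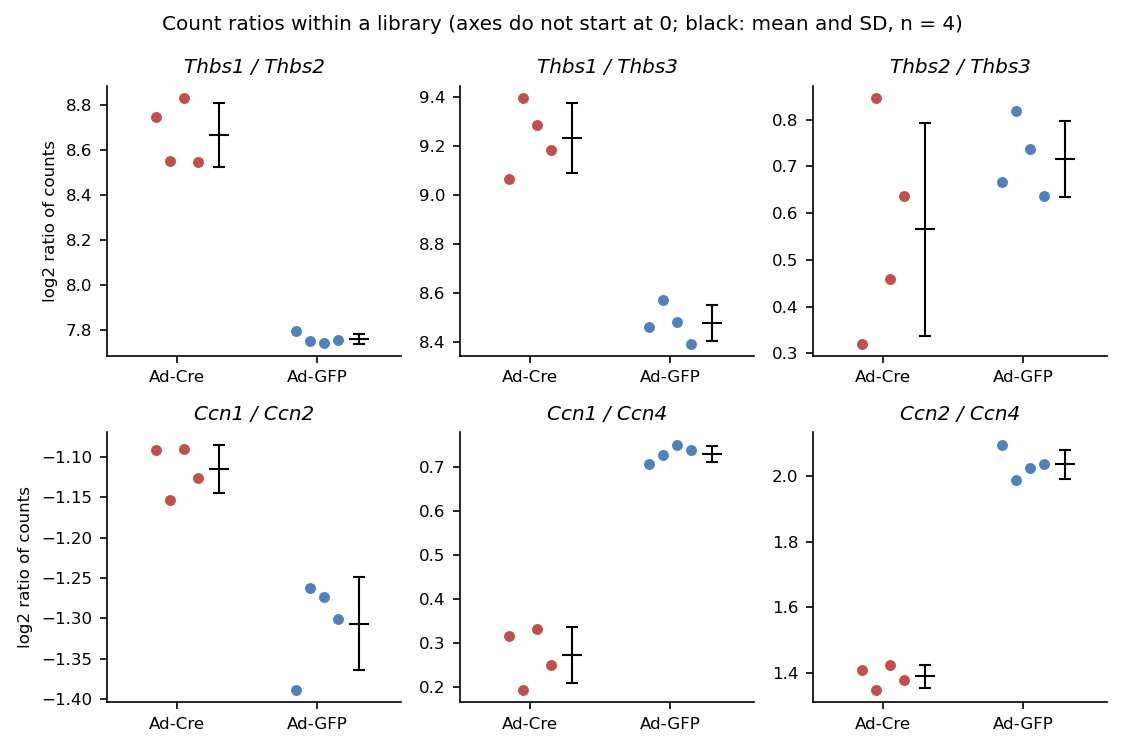
Log2 ratio of the counts of a pair of genes within each library, with Ad-Cre libraries in red and Ad-GFP libraries in blue, and the mean with its SD in black (n = 4 each); axes do not start at 0. The Thbs1 to Thbs2 ratio averages 8.67 in Ad-Cre and 7.76 in Ad-GFP, and the Thbs2 to Thbs3 ratio overlaps between the groups.

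Osteopontin, tenascin-C and periostin are ligands of αv integrins, and osteopontin also binds CD44. Osteopontin is made by renal tubular epithelium, macrophages and activated fibroblasts, while tenascin-C and periostin come mainly from stromal cells. Spp1 (ENSMUSG00000029304; plus strand of chromosome 5, 104435118 to 104441050) measured 10524, 9632, 10142 and 10492 CPM across Ad-Cre replicates 1 to 4, against 7567, 7247, 7428 and 7616 CPM across Ad-GFP replicates 1 to 4. It rose to 136.6% of Ad-GFP (95% interval 132.6% to 140.8%; adjusted p = 5.391e-15), and the lowest Ad-Cre library was well above the highest Ad-GFP library. It added more CPM than any other of the 10 genes.

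Tnc (ENSMUSG00000028364; minus strand of chromosome 4, 63959785 to 64047015) measured 1283, 1335, 1297 and 1349 CPM across Ad-Cre replicates 1 to 4, against 1539, 1625, 1569 and 1587 CPM across Ad-GFP replicates 1 to 4. Every Ad-Cre library was lower, and Ad-Cre was at 83.3% of Ad-GFP (log2 fold change -0.26 ± 0.02, SE; adjusted p = 6.676e-11). Postn (ENSMUSG00000027750; plus strand of chromosome 3, 54361109 to 54391037) measured 32.85, 35.20, 33.60 and 34.89 CPM across Ad-Cre replicates 1 to 4, against 36.81, 42.86, 41.14 and 41.02 CPM across Ad-GFP replicates 1 to 4. The groups did not overlap, though Ad-GFP replicate 1 lay near the Ad-Cre libraries (log2 fold change -0.24 ± 0.05, SE; adjusted p = 0.0003149). In FPKM its groups did overlap, at 11.2 to 12.4 in Ad-Cre and 11.8 to 14.1 in Ad-GFP. In the authors' deposited table all 10 genes had the same sign as here, and 9 had an FDR under 0.05, with Fn1 at 0.932. Those values come from the same 8 libraries, so the shared signs are no separate evidence. The share of all genes under that FDR is not given here.

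Other matricellular and matrix-associated genes changed in both directions. Of 30 listed, 18 had enough counts to be tested, of which 3 were higher and 8 lower in Ad-Cre (median log2 fold change -0.21). Counts called in this and the lists below stand beside 40.3% called among all tested genes. Among tested genes averaging 100 CPM or more the share was 57.7%. Fbln2, encoding the elastic fibre and basement membrane protein fibulin-2, was at 911.6 ± 13.8 CPM in Ad-Cre and 696.8 ± 20.2 CPM in Ad-GFP (SD, n = 4 each; adjusted p = 9.278e-14). Ltbp1, which tethers latent TGF-β in the matrix, was at 242.3 ± 5.3 CPM in Ad-Cre and 188.0 ± 6.0 CPM in Ad-GFP (adjusted p = 2.294e-11). Tgfbi, an integrin ligand of the same fasciclin family as periostin, fell to 60.0% of Ad-GFP (adjusted p = 4.8e-10). Sparc, the collagen-binding protein osteonectin, fell to 82.1% of Ad-GFP (adjusted p = 5.349e-10). The further thrombospondin, CCN and tenascin genes Thbs4, Comp, Ccn3, Ccn6, Tnr, Tnn and Tnxb were under 1 CPM in every library and were not tested, and Vtn (vitronectin) had 0 counts in all. Ccn5, a further CCN gene named after its values were seen, was tested but rare, at 0.792 ± 0.603 CPM in Ad-Cre and 0.627 ± 0.286 CPM in Ad-GFP (SD, n = 4 each; adjusted p = 0.489).

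Among 23 tested receptor genes, 5 were higher and 12 lower in Ad-Cre (median log2 fold change -0.08). Itga5, the α subunit of the main fibronectin receptor, was at 117.4 ± 4.2 CPM in Ad-Cre and 171.2 ± 0.6 CPM in Ad-GFP (SD, n = 4 each), 68.6% of Ad-GFP (adjusted p = 2.792e-14). Its partner Itgb1 was at 3506 ± 42.0 CPM in Ad-Cre and 3620 ± 58.8 CPM in Ad-GFP (adjusted p = 0.0251). Sdc4, a heparan sulfate co-receptor for fibronectin, rose to 128.2% (adjusted p = 1.711e-11), and Itgb6, the β subunit of an epithelial integrin for fibronectin and latent TGF-β, rose to 121.7% (adjusted p = 4.105e-08). Ptprz1, a receptor phosphatase that binds tenascin-C, fell but was rare, at 0.251 ± 0.184 CPM in Ad-Cre and 2.02 ± 0.39 CPM in Ad-GFP (adjusted p = 3.2e-07). The thrombospondin receptor Cd47 was at 44.9 ± 1.8 CPM in Ad-Cre and 43.3 ± 1.6 CPM in Ad-GFP (adjusted p = 0.346), and the osteopontin receptor Cd44 was at 185.7 ± 5.3 CPM in Ad-Cre and 183.1 ± 2.9 CPM in Ad-GFP (adjusted p = 0.547). Itgb1, Cd47 and Cd44 are named as known receptors after their values were seen.

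Of 19 genes for fibronectin fibril assembly and adhesion linkage, 5 were higher and 8 lower (median log2 fold change -0.02). Tns1, encoding the fibrillar adhesion protein tensin-1, rose to 144.0% of Ad-GFP (1608 ± 24.2 CPM in Ad-Cre and 1117 ± 38.0 CPM in Ad-GFP, SD, n = 4 each; adjusted p = 3.635e-16), and Tln2, encoding the integrin activator talin-2, rose to 118.1% (adjusted p = 9.781e-09). The more abundant talin gene Tln1, named after its values were seen, fell to 88.1% (634.8 ± 4.3 CPM in Ad-Cre and 720.9 ± 14.3 CPM in Ad-GFP). Ilk, the integrin-linked kinase, fell to 79.3% (adjusted p = 2.153e-11), and Tgm2, a transglutaminase that crosslinks fibronectin, fell to 69.4% (adjusted p = 3.134e-11). Of 30 genes for TGF-β signalling and transcription factors that act on these promoters, 10 were higher and 6 lower (median log2 fold change 0.01). The SMAD effector genes Smad3 (125.4% of Ad-GFP, adjusted p = 2.658e-10) and Smad2 (120.1%, adjusted p = 1.076e-08) rose, as did the receptor gene Tgfbr1 (127.5%, adjusted p = 8.67e-09). The ligand genes fell, with Tgfb1 at 83.4% of Ad-GFP (adjusted p = 2.204e-05) and Tgfb2 at 78.9% (adjusted p = 2.917e-07). Tgfb3 was at 75.0% (adjusted p = 8.556e-07). Tgfbr2, Smad4 and Smad7 were not called. The ligand genes and these uncalled genes are named after their values were seen. Twist1, a mesenchymal transcription factor, fell to 43.5% (2.43 ± 0.21 CPM in Ad-Cre and 5.60 ± 0.78 CPM in Ad-GFP, SD, n = 4 each; adjusted p = 2.091e-07).

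The deposited KEGG term for ECM-receptor interaction held 6 of the 10 genes and 83 others. Of the others 55 were tested, 14 were higher and 23 lower in Ad-Cre (median log2 fold change -0.06). The rises of smallest p were the basement membrane collagen genes Col4a3 (157.1% of Ad-GFP; adjusted p = 8.751e-19) and Col4a4 (126.2%; adjusted p = 1.276e-11), with Sdc4. The falls of smallest p were Itga5 and the fibrillar collagen genes Col1a1 (63.7%; adjusted p = 1.26e-12) and Col1a2 (66.9%; adjusted p = 2.004e-12). Basement membrane collagen genes did not rise as a class, since Col4a1, Col4a2, Col4a5 and Col4a6 of the same term fell. Col4a1 was at 495.1 CPM in Ad-Cre and 618.8 CPM in Ad-GFP (adjusted p = 8.374e-12). Col4a1, Col4a2, Col4a5 and Col4a6 are named after their values were seen.

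**Figure D5:**
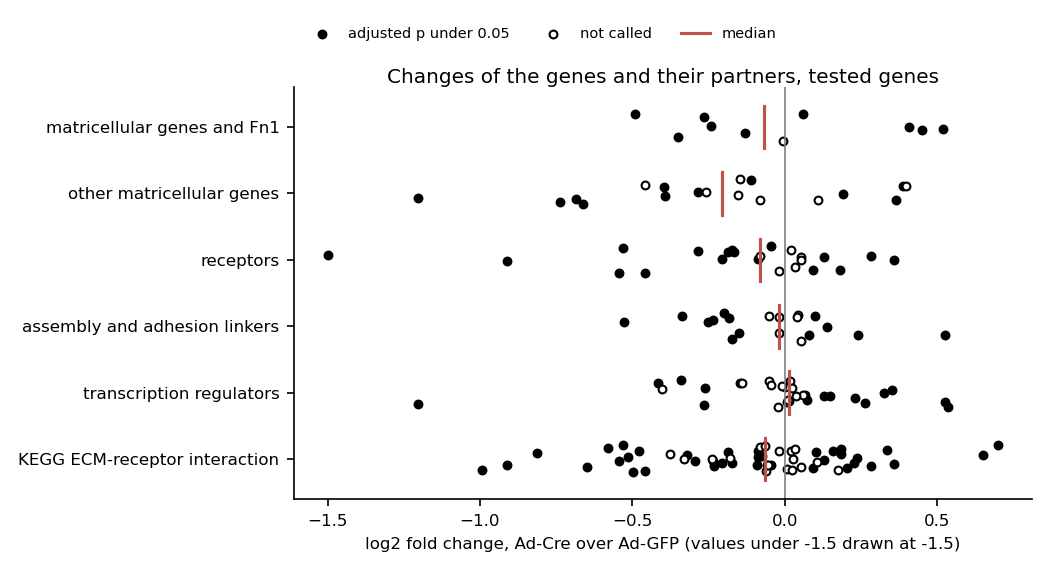
Log2 fold change, Ad-Cre over Ad-GFP, of the 10 genes and of the tested genes of each partner list, 1 point per gene; filled points passed an adjusted p of 0.05, red lines are medians, and values beyond the left limit are drawn at it. Each row has filled points on both sides of 0, and the medians run from -0.21 for other matricellular genes to 0.01 for transcription regulators.

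Across the 8 libraries, the genes whose log2 CPM was most like that of Ccn4, among 10690 genes averaging 5 CPM or more with counts in every library, were Adam12 (Pearson r = 0.995), Btbd7 (r = 0.995) and Klhl24 (r = 0.995). For Thbs2 they were Fscn1 (r = 0.992), Col1a1 (r = 0.989) and Slc38a6 (r = 0.989). These values describe the 8 libraries, which form 2 groups, and the correlation includes the difference between the groups.

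Markers of other cell types differed between the same libraries. Fibroblast markers summed to 864.9 to 943.0 CPM in Ad-Cre and 1112 to 1172 CPM in Ad-GFP, with 1 higher and 5 lower of 12 tested; the most abundant were Gsn (384.5 CPM in Ad-Cre, 365.0 CPM in Ad-GFP) and Vim (167.0 CPM in Ad-Cre, 251.9 CPM in Ad-GFP). Myofibroblast markers summed to 4364 to 4608 CPM in Ad-Cre and 5083 to 5204 CPM in Ad-GFP, with 1 higher and 9 lower of 10 (median log2 fold change -0.84). The most abundant were Tpm1 (2558 CPM in Ad-Cre, 2417 CPM in Ad-GFP), the 1 that rose, and Cald1 (1057 CPM in Ad-Cre, 1238 CPM in Ad-GFP). The sum is weighted by these abundant genes, so it moved less than the median. Epithelial markers summed to 5603 to 5673 CPM in Ad-Cre and 6074 to 6298 CPM in Ad-GFP, with 4 higher and 7 lower of 13. After Krt8, Cldn4 was the most abundant (1099 CPM in Ad-Cre, 1141 CPM in Ad-GFP). The 4 that rose were Epcam (118.0% of Ad-GFP), Cdh16 (122.6%), Ocln (113.5%) and Pax8 (111.6%), named after their values were seen. The epithelial sum is also weighted by its abundant genes, Krt8 among them, so it does not give the direction of every marker.

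Proximal tubule markers summed to 171.4 to 195.3 CPM in Ad-Cre and 122.6 to 136.9 CPM in Ad-GFP, with 4 higher and 0 lower of 6 tested. They were led by Ggt1 (63.3 CPM in Ad-Cre, 42.2 CPM in Ad-GFP) and Havcr1 (46.9 CPM in Ad-Cre, 30.4 CPM in Ad-GFP), while Slc34a1, Slc5a2 and Slc5a12 were under 1 CPM in every library. The largest change among the proximal tubule markers was that of Aqp1 (22.4 CPM in Ad-Cre, 4.5 CPM in Ad-GFP), and Lrp2 and Anpep were not called. Aqp1, Lrp2 and Anpep are named after their values were seen. Macrophage and leukocyte markers summed to 292.6 to 303.9 CPM in Ad-Cre and 333.0 to 386.4 CPM in Ad-GFP, with 0 higher and 11 lower of 16, led by Lyz2 (113.2 CPM in Ad-Cre, 126.3 CPM in Ad-GFP) and Csf1r (33.0 CPM in Ad-Cre, 40.0 CPM in Ad-GFP). Endothelial markers summed to 82.9 to 95.8 CPM in Ad-Cre and 167.1 to 173.4 CPM in Ad-GFP, with 0 higher and 13 lower of 14 tested, led by Cdh5 (18.9 CPM in Ad-Cre, 39.4 CPM in Ad-GFP) and Pecam1 (12.0 CPM in Ad-Cre, 24.1 CPM in Ad-GFP). Mural markers summed to 193.4 to 206.7 CPM in Ad-Cre and 211.2 to 223.4 CPM in Ad-GFP, with 0 higher and 2 lower of 4 tested, led by Mcam (136.5 CPM in Ad-Cre, 149.0 CPM in Ad-GFP) and Notch3 (43.6 CPM in Ad-Cre, 41.6 CPM in Ad-GFP). The mural markers Kcnj8 and Abcc9 were under 1 CPM in every library. Rgs5, named after its values were seen, was at 2.2 CPM in Ad-Cre and 2.4 CPM in Ad-GFP. All 16 mitosis genes fell (median log2 fold change -0.80); those of smallest p, Mki67, Top2a, Anln and Ccna2, were at 54.3%, 54.4%, 55.4% and 47.6% of Ad-GFP. The part of these differences in the changes of the 10 genes was not tested.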

How the data were processed

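RNA sequencing of 8 samples was analysed from 1 deposited table. The authors deposited whole-number read counts per gene, FPKM per sample, mean FPKM per group, a log2 fold change of Ad-Cre over Ad-GFP, and a p-value with its FDR, per the file headers. Builds named in the submitters' processing notes are GRCm38 and mm10. The labels and headers used here do not name the aligner, the counter, the strand option or the test that the authors used. Gene positions are from GENCODE M21 (GRCm38). Counts were analysed with edgeR 4.0.16 in R 4.3.3: filterByExpr (13337 genes kept), TMM factors (0.992 to 1.01), quasi-likelihood F-test without a block, two-sided, Benjamini-Hochberg adjustment over all tested genes, threshold 0.05. SE is the absolute log2 fold change over the square root of F. CPM are relative to the TMM-scaled totals, and intervals are 95% intervals with 25.2 degrees of freedom. Family ratios were tested by exact permutation over samples (scipy 1.17.1). Replicates of a group were no copies of 1 library (chi-square per degree of freedom of pairs 1.81 to 3.26). That does not show whether they were separate cultures or animals. The common coefficient of variation between replicates in edgeR's fit was 2.89%.

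Alternatives were RLE and upper-quartile factors, no filter, at least 5 CPM, DESeq2 1.42.0, limma-voom (limma 3.58.1), a replicate block, leaving out each library, limma on log2(FPKM + 1) or log2(FPKM + 0.1) for genes of mean FPKM of at least 1, thinning to 15879244 counts, and totals without mitochondrial genes and the 10 genes. The fit was checked on simulated counts, where most changed genes were recovered and unchanged genes made up a share of the calls above the nominal threshold. Far fewer genes were changed in the simulation than were called here, so that share does not carry over to these data. Calls near the threshold, such as that of Ccn1, are the least firm. The 10 genes and the lists were chosen with earlier results of these data known. Beyond the 10, the text names Suv39h1, the called genes among the 4 of smallest p per partner list, the 2 most abundant per marker list, up to 3 KEGG genes per direction and 3 genes most like Ccn4 and Thbs2. Genes under 1 CPM, Acta2, Dcn, Mtx1, Ccn5 and those marked in the text were named after their values were seen.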

Additional observations from a re-analysis of the deposited data

Results flagged for a closer look

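In all, 134 groups of 4 libraries were looked at (the 10 genes, most other genes given with values and the 6 ratios, in each group). Of these, 5 had 1 library set apart from the other 3, where chance gives about 5% of groups. None of the 10 genes or of the ratios was among them. In Ad-GFP replicate 3, Itga5 was at 170.4 CPM, against 171.4 to 171.6 CPM in the other Ad-GFP libraries. In Ad-GFP replicate 1, Ptprz1 was at 1.43 CPM, against 2.19 to 2.27 CPM in the others. In Ad-GFP replicate 4, Gsn was at 372.4 CPM, against 362.0 to 363.0 CPM in the others. In Ad-GFP replicate 1, Mcam was at 143.6 CPM, against 150.4 to 151.2 CPM in the others. In Ad-Cre replicate 2, Cd44 was at 193.6 CPM, against 182.1 to 183.7 CPM in the other Ad-Cre libraries.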

How the results depend on the processing

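The 5 falls and the rises of Ccn4, Spp1 and Thbs1 kept their direction and their call under all 19 alternatives, and Fn1 was called in none. The highest adjusted p among these 8 genes was 0.0415, for Postn. Over the alternatives the log2 fold change ranged from 0.47 to 0.54 for Ccn4, 0.43 to 0.47 for Spp1, 0.39 to 0.43 for Thbs1, -0.54 to -0.40 for Thbs2, -0.41 to -0.28 for Thbs3, -0.28 to -0.25 for Tnc, -0.29 to -0.17 for Postn and -0.15 to -0.12 for Ccn2. Beside the libraries named above, Ccn1 was not called with upper-quartile factors (adjusted p = 0.161), at least 5 CPM (0.115) or limma on log2(FPKM + 1) or log2(FPKM + 0.1) (0.253 each); the cause was not tested. Over all genes, limma on log2(FPKM + 1) called 3530 and on log2(FPKM + 0.1) 3520 of 11679 tested, against 5370 of 13337 tested; unit, test and filter changed together there, and the cause was not tested. Leaving out 1 library gave 4816 to 5084 calls. The replicate block gave 5390 calls and changed none of the 10 calls. The numbers are not known to pair samples: deviations of same-numbered libraries correlated at 0.03 to 0.17, and 6 of 8 libraries were closest to their own number. No ratio changed direction when a library was left out, but 3 against 4 samples cannot give an exact p under 0.0571. Thbs3 and Thbs2, at 9.76 to 24.9 CPM, had the widest intervals.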
